A study of Mus musculus with 18 samples.

Results

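Expression of 7 genes of the fibroblast growth factor (FGF) system was followed through mouse embryonic stem cells and embryoid bodies: the ligands Fgf4, Fgf8 and Fgf15 and the receptors Fgfr1, Fgfr2, Fgfr3 and Fgfr4. They were taken by gene symbol from the tables of RNA-seq counts, in which all 7 of 7 were found among 54429 gene names, and all 7 passed the filter on low counts. The libraries came in 9 groups of 2. K19R and FLAG-WT cells are knock-in mouse embryonic stem cells (mESCs) that carry FLAG-tagged EED with the K19R substitution or of wildtype sequence, and both were sampled at days 0, 2, 6 and 10. EED belongs to the core of Polycomb repressive complex 2, which methylates histone H3 at silenced genes. The series title links acetylation of EED to the targeting of that complex and to differentiation. Day 0 cells were mESCs grown with leukemia inhibitory factor (LIF) and 2i, a pair of inhibitors of MEK (PD0325901) and GSK3 (CHIR99021). Cells of days 2, 6 and 10 were embryoid bodies, aggregates that differentiate in suspension, kept on a rotary shaker once LIF and 2i had been taken away. The last group was wildtype mESCs grown with LIF alone, with no FLAG knock-in in their label.

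The number of clones behind each knock-in line, and how the wildtype mESCs relate to them, are not given in the sources used here, and the substitution itself cannot be read from counts per gene. Each of the 16 FLAG-EED libraries held between 20158077 and 28917558 counts, and the pair from wildtype mESCs held 14190166 and 37375083. Day 0 cells carried the markers of their label: 10 naive pluripotency genes, among them Nanog and Esrrb, summed to 4766 to 4878 CPM (counts relative to library size) in K19R and to 4802 to 4826 CPM in FLAG-WT cells. Markers of extraembryonic and other endoderm had high levels in the later embryoid bodies. On day 2 their summed level was 1036 to 1167 CPM in K19R and 8102 to 8115 CPM in FLAG-WT. It was 16434 to 16518 CPM in K19R and 43799 to 45080 CPM in FLAG-WT on day 6, and 35584 to 37428 CPM in K19R and 57776 to 64921 CPM in FLAG-WT on day 10, with none of the 19 genes at 0. Each sample is a bulk library, so fewer cells of a type and less RNA per cell cannot be told apart in any value below.

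FGF ligands bind receptor tyrosine kinases at the cell surface together with heparan sulfate, and the receptors signal through FRS2, GRB2, RAS and RAF to MEK and ERK. In mESCs FGF4 is made by the pluripotent cells themselves and, through FGFR1, drives ERK activity that readies them to leave the naive state. The MEK inhibitor of 2i blocks that route below the receptors. In the blastocyst the same ligand directs inner cells to primitive endoderm, with FGFR2 as a further receptor of that lineage. FGF8 is a ligand of the primitive streak, and FGF15, the mouse counterpart of human FGF19, is an endocrine ligand in the adult that acts on FGFR4 with the cofactor beta-klotho.

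Fgf4 and Fgf15 are neighbours on chromosome 7. On GRCm38, with positions counted from 1 as in the deposited annotation, Fgf4 spans chr7:144847367-144865243 and Fgf15 spans chr7:144896531-144900953, both on the plus strand with 31288 bases between them. Fgf8 lies at chr19:45736798-45742915 on the minus strand, Fgfr1 at chr8:25513654-25575718 on the plus strand, Fgfr2 at chr7:130162451-133123350 on the minus strand, Fgfr3 at chr5:33721674-33737068 on the plus strand and Fgfr4 at chr13:55152640-55168759 on the plus strand. Reads in exons shared with another gene were uncertain, also where that gene lies on the other strand, since the counts used no strand option. Such bases made up 25.7% of the exonic length of Fgf15 and 13.9% of that of Fgfr3, shared with antisense genes whose own totals over the 16 FLAG-EED libraries were 126 counts at most. They made up 3.04% for Fgfr2 (shared with Ctbp2 on the same strand) and 1.66% for Fgfr1, and none for Fgf4, Fgf8 or Fgfr4. Ctbp2 had 58920 counts over the 16 FLAG-EED libraries, against 7237 for Fgfr2. Whether reads of Ctbp2 entered the Fgfr2 counts was not tested, which limits every Fgfr2 value below.

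RefSeq promoter windows of 300 bases (250 before to 50 after a start site, GRCm38.p6) were at hand for 4 of the 7 genes. Those of Fgf4, Fgfr3 and Fgfr4 are printed 5′ to 3′ on the gene's strand, because Fgfr3 and Fgfr4 moved together through the time course and Fgf4 moved the other way. Capitals mark the GC box GGGCGG on either strand. The windows lie at chr7:144861136-144861435 (Fgf4), chr5:33721474-33721773 (Fgfr3, the more 5′ of its pair of windows) and chr13:55152568-55152867 (Fgfr4), each on the plus strand.
Fgf4: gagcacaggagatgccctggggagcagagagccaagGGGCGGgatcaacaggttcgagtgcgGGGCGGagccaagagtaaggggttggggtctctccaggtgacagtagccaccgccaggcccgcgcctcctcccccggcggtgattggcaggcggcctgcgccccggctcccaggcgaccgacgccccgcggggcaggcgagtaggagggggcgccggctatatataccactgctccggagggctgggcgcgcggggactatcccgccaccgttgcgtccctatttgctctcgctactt
Fgfr3: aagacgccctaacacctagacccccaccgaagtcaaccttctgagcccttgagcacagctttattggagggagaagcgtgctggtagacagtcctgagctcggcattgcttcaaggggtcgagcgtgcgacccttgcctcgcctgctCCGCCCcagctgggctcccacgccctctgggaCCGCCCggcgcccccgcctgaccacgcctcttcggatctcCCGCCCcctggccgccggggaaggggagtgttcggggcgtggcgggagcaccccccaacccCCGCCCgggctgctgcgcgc
Fgfr4: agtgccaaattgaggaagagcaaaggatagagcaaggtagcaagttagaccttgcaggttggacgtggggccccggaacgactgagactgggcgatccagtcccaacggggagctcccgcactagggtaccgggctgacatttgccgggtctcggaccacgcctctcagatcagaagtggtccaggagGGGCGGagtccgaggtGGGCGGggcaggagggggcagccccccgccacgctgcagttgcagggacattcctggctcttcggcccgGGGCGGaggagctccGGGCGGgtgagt

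All 3 windows were rich in CpG dinucleotides. They held 28 (Fgf4), 26 (Fgfr3) and 20 (Fgfr4), against a median of 7 and an upper quartile of 20 over 32851 mouse windows of the same length. The Fgfr2 window held 4. GC boxes numbered 2 in Fgf4, 4 in Fgfr3 and 4 in Fgfr4, and 35.7% of all windows held at least 1. Beside GGGCGG the motifs searched on both strands were the octamer ATGCAAAT (in 1.74% of all windows), TATAAA (13.6%), the E-box CACGTG (7.15%), the GATA motif as AGATAA or TGATAA (18.6%) and the SOX motif as ACAAAG or ACAATG (28.6%). None of these others matched in the 3 printed windows, and 1 CACGTG matched in that of Fgfr2. Only these exact letters were searched, so the stretch tatatata in the Fgf4 window was not counted. Fgf4, whose RNA changed the opposite way, thus had a CpG-rich window as Fgfr3 and Fgfr4 did.

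Fgf4 RNA was at its highest in day 0 mESCs and fell up to day 6 in both lines, less in K19R from day 2 on, and it fell further by day 10 in FLAG-WT. The first library of each pair is replicate 1. Fgf4 had 483 and 468 CPM in K19R and 441 and 456 CPM in FLAG-WT cells at day 0, then 310 and 278 CPM in K19R and 198 and 211 CPM in FLAG-WT at day 2. The groups did not overlap at either day, but the gap at day 0 was small. Fgf4 then had 55.8 and 41.4 CPM in K19R and 13.4 and 10.3 CPM in FLAG-WT at day 6, and 45.4 and 34.1 CPM in K19R and 2.14 and 2.62 CPM in FLAG-WT at day 10. FLAG-WT embryoid bodies had thus all but lost the ligand by day 10, with 41 and 49 counts, while K19R kept 1138 and 803.

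**Figure D1:**
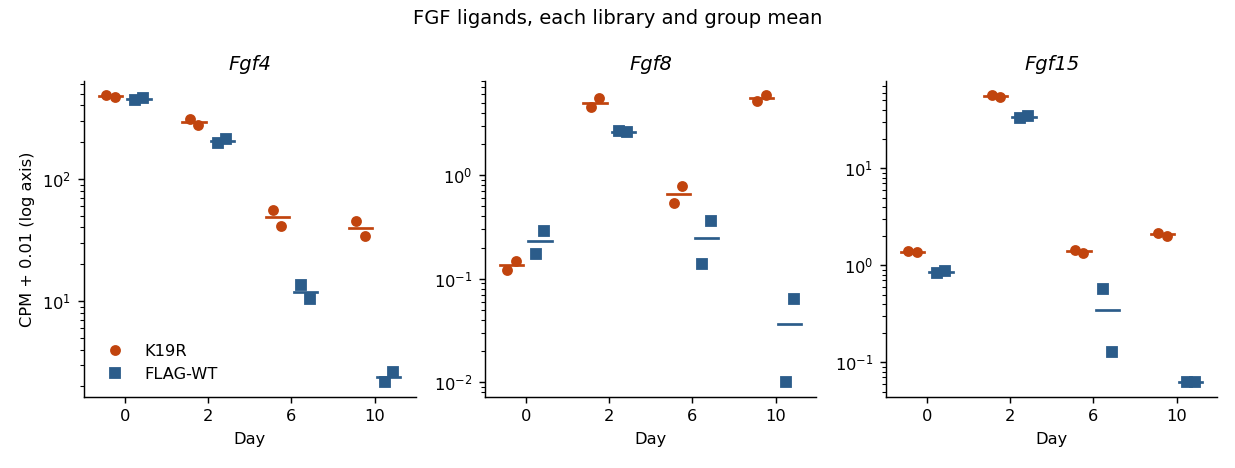
Level of the ligands Fgf4, Fgf8 and Fgf15 at days 0, 2, 6 and 10 in K19R (circles, left at each day) and FLAG-WT (squares, right). Points are single libraries and bars are means of 2 libraries, as CPM plus 0.01 on a log axis that differs between panels. All 3 ligands were higher in both K19R libraries than in both FLAG-WT libraries at days 2, 6 and 10, and the Fgf8 level of K19R had a peak at day 2 and another at day 10.

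The test across all genes did not call Fgf4 at day 0, with a log2 fold change of K19R over FLAG-WT of 0.08 ± 0.10 (SE, adjusted p = 0.69). It was higher in K19R at day 2 by 0.52 ± 0.11 (adjusted p = 0.000246), at day 6 by 2.01 ± 0.14 (adjusted p = 2.53e-12) and at day 10 by 4.06 ± 0.19 (adjusted p = 1.49e-15), which is 16.7-fold. Each adjusted p here and below is from edgeR's quasi-likelihood test with Benjamini-Hochberg adjustment over all genes tested, and a gene is said to have changed where it is under 0.05. The fall between days also differed between lines. From day 2 to day 6 Fgf4 changed by a log2 of -2.60 ± 0.11 in K19R and -4.09 ± 0.14 in FLAG-WT, and from day 6 to day 10 by -0.29 ± 0.12 in K19R and -2.34 ± 0.22 in FLAG-WT. The differences between lines were 1.49 ± 0.17 (adjusted p = 1.26e-07) and 2.05 ± 0.26 (adjusted p = 4.17e-07). The late fall in K19R (adjusted p = 0.041) was within the spread of its libraries, which overlapped between the days, and it was lost with DESeq2 (adjusted p = 0.14), without K19R day 10 replicate 2 (-0.10) or without K19R day 6 replicate 1 (-0.06), over a range of adjusted p from 0.00182 to 0.74 in 9 alternatives. Between the lines the markers of general pluripotency moved with the ligand at days 6 and 10, while those of naive pluripotency did not at days 2 and 6. The summed level of 4 general pluripotency genes, among them Pou5f1 and Sox2, was 651 to 658 CPM in K19R and 238 to 284 CPM in FLAG-WT at day 6, and 397 to 438 CPM in K19R and 135 to 155 CPM in FLAG-WT at day 10. All 4 were higher in K19R on both days, but at day 2, where Fgf4 was already higher, 0 were higher and 1 lower. Of 10 markers of naive pluripotency, such as Esrrb and Klf4, 0 were higher and 9 lower in K19R at day 2, 5 and 5 on day 6, and 6 and 4 by day 10. Their medians of log2 were -0.97, 0.15 and 1.54. With scaling by library totals the splits were 5 and 4 on day 6 and 6 and 2 by day 10, with medians of 0.52 and 1.84. The summed level of the naive markers was 571 to 624 CPM in K19R and 822 to 842 CPM in FLAG-WT at day 6, the opposite order to Fgf4. At day 10 it was 993 to 1090 CPM in K19R and 969 to 1003 CPM in FLAG-WT. Over all genes tested 20% were higher and 21.8% lower at day 2, 28.4% and 30.1% on day 6, and 33.2% and 25.2% by day 10. No gene of either marker list was at 0, and the part of these markers in the result was not tested.

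Fgf15 was a sharp day 2 gene in both lines. It had 1758 and 1606 counts in K19R and 761 and 1006 counts in FLAG-WT at day 2, or 56.4 and 54.5 CPM in K19R and 32.8 and 34.7 CPM in FLAG-WT. At day 0 it had 1.40 and 1.35 CPM in K19R and 0.826 and 0.870 CPM in FLAG-WT, so its level climbed 40.1-fold by day 2 in K19R and 39.6-fold in FLAG-WT. That climb did not measurably differ between the lines (difference of log2 0.02 ± 0.37, adjusted p = 0.99). The level at day 2 was higher in K19R by a log2 of 0.72 ± 0.11 (adjusted p = 5.2e-06), while at day 0 a difference of 0.70 ± 0.28 did not pass (adjusted p = 0.12). Of all genes tested 20% were higher and 21.8% lower in K19R at day 2. Markers of the formative and primed epiblast were higher in K19R at day 2 in 8 of 8 genes, none at 0, with a summed level of 2841 to 3000 CPM in K19R and 1796 to 1859 CPM in FLAG-WT. Their part in the result was not tested.

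The peak was brief. Fgf15 was back to 36 and 38 counts in K19R and 13 and 2 counts in FLAG-WT at day 6, and had 54 and 47 counts in K19R and 1 and 1 in FLAG-WT at day 10. It was higher in K19R at day 6 (log2 1.89 ± 0.35, adjusted p = 5.24e-05), a value that spread between 1.31 and 3.52 on leaving out FLAG-WT day 6 replicate 2 or replicate 1, whose counts differ most. At day 10 the scaled ratio of K19R to FLAG-WT, from 101 counts against 2, was 39.3 with an exact 95% interval of 10.6 to 329 that covers counting error only (adjusted p = 3.11e-09). The small gain of Fgf15 in K19R from day 6 to day 10 (log2 0.58 ± 0.23, adjusted p = 0.033) was lost without any 1 of the 4 libraries, at adjusted p = 0.060 to 0.14, and also with DESeq2, with scaling by library totals and without the filter.

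Fgf8, the streak ligand, had few counts and came back late in K19R. It had 3 and 3 counts in K19R and 4 and 7 counts in FLAG-WT at day 0, then 141 and 161 counts in K19R and 61 and 75 counts in FLAG-WT at day 2. At day 6 it had 13 and 22 counts in K19R and 3 and 6 counts in FLAG-WT. At day 10 it had 129 and 138 counts in K19R, and 0 and 1 counts in FLAG-WT. In CPM the K19R series was thus 0.125 ± 0.020, 5.00 ± 0.66, 0.648 ± 0.18 and 5.50 ± 0.50 at days 0, 2, 6 and 10 (SD, n = 2), with overlapping libraries at days 2 and 10.

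The late rise of Fgf8 stood apart in the test. From day 6 to day 10 it changed in K19R by a log2 of 3.06 ± 0.28 (adjusted p = 1.04e-09), or 8.34-fold, whereas in FLAG-WT the scaled ratio of day 10 to day 6, from 1 count against 9, was 0.119 (exact 95% interval 0.00271 to 0.857). The fitted difference between lines passed (adjusted p = 9.38e-05). Between the lines Fgf8 was higher in K19R at day 2 (log2 0.94 ± 0.23, adjusted p = 0.00168) and at day 10, where 267 counts stood against 1, a scaled ratio of 208 with an exact 95% interval of 37.0 to 8232 (adjusted p = 1.03e-11). At day 6 the difference (log2 1.53 ± 0.52, adjusted p = 0.014) was lost without FLAG-WT day 6 replicate 1 (0.89, adjusted p = 0.23) or without K19R day 6 replicate 2 (1.20, adjusted p = 0.12), over a range of adjusted p from 0.00256 to 0.23 in 10 alternatives. The call in FLAG-WT from day 6 to day 10 (adjusted p = 0.039) was likewise lost with DESeq2 and without FLAG-WT day 10 replicate 1 or FLAG-WT day 6 replicate 2, at adjusted p = 0.10 to 0.25 (0.020 to 0.25 over 9 alternatives). Markers of primitive streak and mesoderm moved with the late rise but not with the day 2 peak. Their summed level was 83.5 to 89.8 CPM in K19R and 24.9 to 33.8 CPM in FLAG-WT at day 10, 7 of 9 tested were higher in K19R, and T and Msgn1 were at 0 in FLAG-WT. At day 2 the sum was 20.1 to 23.0 CPM in K19R and 40.7 to 42.4 CPM in FLAG-WT, the opposite order to Fgf8. On that day 1 marker was higher and 2 were lower in K19R. Over all genes tested 33.2% were higher and 25.2% lower at day 10, and 20% and 21.8% at day 2. At day 6 the sums overlapped, with 31.6 to 33.6 CPM in K19R and 32.7 to 40.9 CPM in FLAG-WT. Their part in the result was not tested.

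Per kilobase of exon Fgf4 made up nearly all ligand RNA in mESCs, and in K19R Fgf8 took a visible share at the end. The summed level of the 3 ligands was 149 ± 3.5, 114 ± 7.0, 16.1 ± 3.1 and 17.2 ± 2.2 CPM per kb in K19R at days 0, 2, 6 and 10, and 141 ± 3.4, 77.1 ± 3.4, 4.01 ± 0.67 and 0.783 ± 0.14 CPM per kb in FLAG-WT (SD, n = 2). Fgf4 held 99.6% of that sum in K19R and 99.7% in FLAG-WT at day 0. Fgf15 held 15.9% in K19R and 14.3% in FLAG-WT at day 2. At day 10 Fgf8 held 24.03% ± 5.2 in K19R, and its share in FLAG-WT rests on 1 count.

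Fgfr1, the receptor through which FGF4 acts in mESCs, was the most abundant of the receptors at day 0 per kilobase of exon. It had 214 and 213 CPM in K19R and 192 and 202 CPM in FLAG-WT cells at day 0, then 96.9 and 88.6 CPM in K19R and 78.1 and 72.9 CPM in FLAG-WT at day 2. Fgfr1 fell in both lines over this step, by 1.20 on the log2 scale in K19R and by 1.39 in FLAG-WT. At day 6 it had 127 and 146 CPM in K19R, against 67.7 and 65.9 CPM in FLAG-WT. At day 10 the order had turned, with 81.0 and 78.1 CPM in K19R and 99.1 and 109 CPM in FLAG-WT.

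The tests followed these levels. Fgfr1 did not pass at day 0, although the libraries did not overlap (log2 0.11 ± 0.07, adjusted p = 0.37), and it was higher in K19R by 0.30 ± 0.08 at day 2 (adjusted p = 0.00222). It was also higher by 1.03 ± 0.08 at day 6 (adjusted p = 1.07e-11), and lower at day 10 (-0.39 ± 0.08, adjusted p = 0.000102). The day 2 call was lost without FLAG-WT day 2 replicate 2 (0.25, adjusted p = 0.054), and the day 10 call was lost when counts were scaled by library totals alone (-0.08, adjusted p = 0.33), a scaling that put the median of all genes at 0.44 rather than 0.13. From day 6 to day 10 Fgfr1 went opposite ways in the lines, by -0.78 ± 0.07 in K19R (adjusted p = 1.79e-09) and 0.64 ± 0.08 in FLAG-WT (adjusted p = 2.05e-07), a difference of -1.42 ± 0.11 (adjusted p = 8.63e-11).

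**Figure D2:**
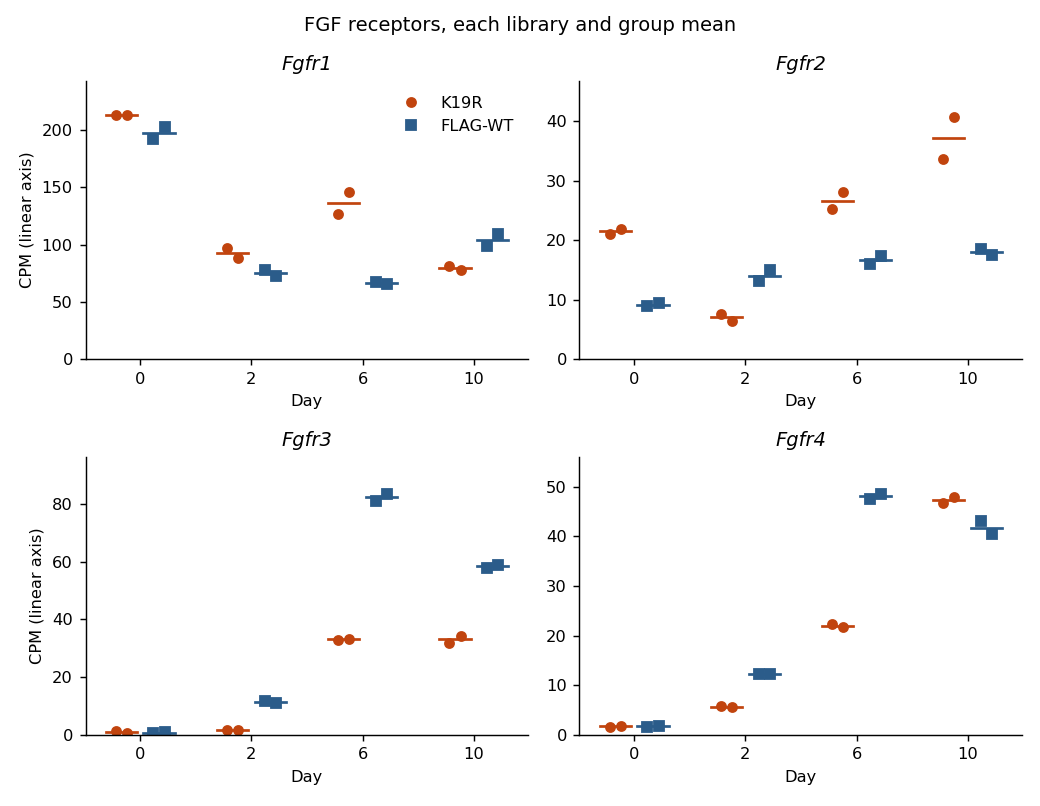
Level of the receptors Fgfr1, Fgfr2, Fgfr3 and Fgfr4 at days 0, 2, 6 and 10 in K19R (circles, left at each day) and FLAG-WT (squares, right), in CPM on linear axes from 0 that differ between panels. Points are single libraries and bars are means of 2 libraries. Fgfr3 and Fgfr4 lagged in K19R at days 2 and 6, Fgfr4 reached 47.3 CPM in K19R and 41.8 CPM in FLAG-WT at day 10, and Fgfr2 was the member that already differed at day 0.

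Fgfr2, a receptor of the primitive endoderm lineage, was the only 1 of the 7 genes that differed between the lines before differentiation. It had 21.1 and 21.9 CPM in K19R and 8.88 and 9.37 CPM in FLAG-WT at day 0, with no overlap. That is 2.35-fold (log2 1.23 ± 0.12, adjusted p = 1.52e-07), where 10.5% of all 19092 genes tested were called at day 0, with 5.51% of all genes higher and 4.98% lower in K19R. Of the 19 endoderm markers 1 was higher and 6 lower in K19R at day 0, with a summed level of 1748 to 1789 CPM in K19R and 1666 to 1825 CPM in FLAG-WT, and their part in the result was not tested. At day 2 the order was the reverse, with 7.58 and 6.45 CPM in K19R and 13.1 and 15.0 CPM in FLAG-WT (log2 -1.001 ± 0.13, adjusted p = 3.81e-07). It was higher in K19R again at day 6, with 25.2 and 28.1 CPM in K19R and 16.02 and 17.4 CPM in FLAG-WT (0.68 ± 0.11, adjusted p = 1.3e-05), and at day 10, with 33.6 and 40.8 CPM in K19R and 18.5 and 17.5 CPM in FLAG-WT (1.046 ± 0.11, adjusted p = 1.27e-08).

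The courses of Fgfr2 differed accordingly. From day 0 to day 2 it fell by 1.61 ± 0.12 on the log2 scale in K19R (adjusted p = 1.28e-11) and gained 0.62 ± 0.13 in FLAG-WT (adjusted p = 0.000128), a difference of -2.24 ± 0.18 (adjusted p = 2.65e-10). From day 2 to day 6 it gained 1.92 ± 0.12 in K19R (adjusted p = 1.58e-13), while 0.25 ± 0.12 in FLAG-WT did not pass (adjusted p = 0.069). In FLAG-WT its level stayed within 8.88 to 18.5 CPM over all 4 days, against 6.45 to 40.8 CPM in K19R.

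Fgfr3 and Fgfr4 were nearly silent in mESCs and came up with differentiation, later in K19R. Fgfr3 had 1.14 and 0.652 CPM in K19R and 0.578 and 0.988 CPM in FLAG-WT at day 0, and the groups overlapped. At day 2 it had 1.80 and 1.73 CPM in K19R, against 11.9 and 11.001 CPM in FLAG-WT. It had 33.0 and 33.2 CPM in K19R and 81.1 and 83.4 CPM in FLAG-WT at day 6, and 31.8 and 34.3 CPM in K19R and 57.9 and 58.9 CPM in FLAG-WT at day 10. At days 2, 6 and 10 every K19R library was below every FLAG-WT library.

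At day 2 Fgfr3 was 6.45-fold lower in K19R (log2 -2.69 ± 0.15, adjusted p = 9.06e-14), and the gap narrowed to -1.31 ± 0.09 at day 6 (adjusted p = 4.71e-12) and -0.82 ± 0.09 at day 10 (adjusted p = 4.13e-08). Its rise from day 0 to day 2 was 0.93 ± 0.24 in K19R (adjusted p = 0.00206) and 3.85 ± 0.18 in FLAG-WT (adjusted p = 9.95e-16), a difference of -2.92 ± 0.35 (adjusted p = 5e-07). From day 2 to day 6 K19R gained 4.22 ± 0.14 and FLAG-WT 2.85 ± 0.10, a difference of 1.37 ± 0.18 in favour of K19R (adjusted p = 8.26e-07). From day 6 to day 10 Fgfr3 fell in FLAG-WT (-0.49 ± 0.09, adjusted p = 7.71e-05). Over that step K19R did not measurably change (-0.002 ± 0.10, adjusted p = 0.99), so the gap narrowed there with the fall in FLAG-WT. The early rise in K19R was lost without K19R day 0 replicate 2 (0.61, adjusted p = 0.064).

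Fgfr4, the receptor through which FGF15 acts in adult liver, had a like course, but its difference at day 10 did not pass the test. It had 1.62 and 1.86 CPM in K19R and 1.65 and 1.82 CPM in FLAG-WT at day 0, with overlapping groups. It then had 5.78 and 5.53 CPM in K19R and 12.3 and 12.2 CPM in FLAG-WT at day 2, and 22.3 and 21.7 CPM in K19R and 47.5 and 48.6 CPM in FLAG-WT at day 6. At day 10 it had 46.7 and 48.0 CPM in K19R and 43.1 and 40.5 CPM in FLAG-WT. Fgfr4 was lower in K19R by a log2 of -1.12 ± 0.11 at day 2 (adjusted p = 4.89e-09) and -1.13 ± 0.09 on day 6 (adjusted p = 2.7e-11), and did not pass at day 10 (0.18 ± 0.08, adjusted p = 0.072; 0.48 with scaling by library totals, where it passed). The step from day 6 to day 10 differed between lines by 1.31 ± 0.12 (adjusted p = 3.17e-09), with 1.11 ± 0.09 in K19R (adjusted p = 4.79e-11) and -0.20 ± 0.09 in FLAG-WT (adjusted p = 0.059).

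Across the 16 FLAG-EED libraries log2 CPM of Fgfr3 and Fgfr4 had a Pearson r of 0.97, and Fgf4 had r = -0.88 with Fgfr3 and r = -0.86 with Fgfr4. These are descriptions over 8 groups that share days and lines. Between the lines the endoderm markers moved with both receptors at days 2 and 6: 18 of 19 were lower in K19R at day 2 and 18 of 19 at day 6, with medians of log2 -3.04 and -1.39, and 9 of 19 were lower and 5 higher at day 10 (6 and 8 with scaling by library totals). Over all genes tested 20% were higher and 21.8% lower at day 2, 28.4% and 30.1% on day 6, and 33.2% and 25.2% by day 10. The median of the endoderm list at day 10 was -0.17, and 0.14 with scaling by library totals, so its genes were mixed on that day. The summed levels given above, in which abundant genes weigh most, followed the same order between the lines as Fgfr3 at days 2, 6 and 10. Fgfr4 had the opposite order at day 10, though its difference did not pass. From day 6 to day 10 the mean sum rose from 44440 to 61349 CPM in FLAG-WT, where Fgfr3 fell from 82.3 to 58.4 CPM. In K19R the mean sum rose from 16476 to 36506 CPM, while Fgfr3 had 33.1 and 33.0 CPM. The part of these markers in the result was not tested.

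**Figure D3:**
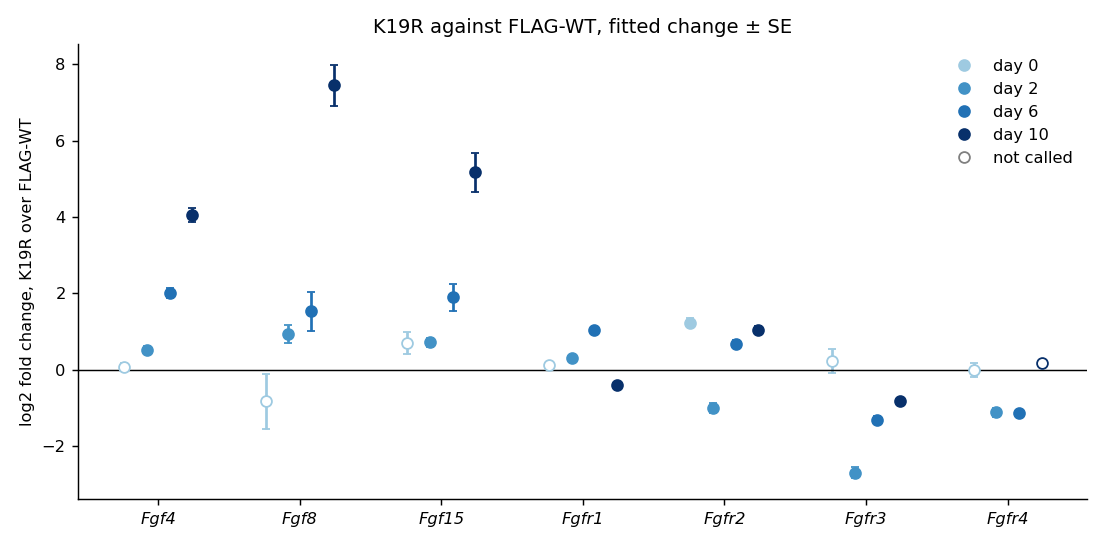
Fitted log2 fold change of K19R over FLAG-WT for each FGF gene at days 0, 2, 6 and 10, from light to dark, with error bars of 1 SE from the fit of 16 libraries. Filled points passed an adjusted p of 0.05 and open points did not. From day 2 to day 10 the points of Fgf4 and Fgf15 climb, the receptors Fgfr3 and Fgfr4 are lowest at days 2 and 6, and the day 10 points of Fgf8 and Fgf15 rest on 1 and 2 FLAG-WT counts.

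Between the lines 1 of the 7 genes was higher in K19R and 0 lower at day 0. At day 2, 4 were higher and 3 lower, where 41.8% of all genes tested were called, 20% higher and 21.8% lower. On day 6 the split was 5 and 2, with 58.5% of all genes called, 28.4% higher and 30.1% lower. By day 10 it was 4 and 2, with 58.4% called, 33.2% higher and 25.2% lower. The median log2 over the 7 genes was 0.11, 0.30, 1.03 and 1.046 over the 4 days, beside -0.00, 0, 0.02 and 0.13 over all genes. The 3 ligands were higher in K19R at each day after day 0, and the receptors were mixed. With scaling by library totals alone 72.9% of all calls at day 6 and 77.0% at day 10 were higher in K19R, in place of 48.6% and 56.9%, and the 3 ligands stayed higher while Fgfr3 stayed lower.

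Within the lines most members changed over every step. From day 0 to day 2, 4 rose and 3 fell in K19R, where 56.4% of all genes were called (28.5% higher and 27.9% lower), and 5 rose and 2 fell in FLAG-WT, where 56.1% were called (28.5% and 27.6%). Over the next step 4 rose and 3 fell in K19R (66.8% of all genes called, 34.7% higher and 32.1% lower), and 2 rose and 4 fell in FLAG-WT (72.6%, 35.6% and 37%). Over the last step 4 rose and 2 fell in K19R (58.5%, 33.4% and 25.2%), and 1 rose and 4 fell in FLAG-WT (44.2%, 21.2% and 22.9%). The steps themselves differed between the lines for 4 of the 7 genes up to day 2, 1 with a higher and 3 with a lower change in K19R, where 27.1% of all genes were called (12.7% and 14.4%). They differed for 5 genes up to day 6, all higher in K19R (44.5% called, 23.2% and 21.3%). They differed for 6 up to day 10, 5 higher and 1 lower (39% called, 24.4% and 14.6%).

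The make-up of the receptor RNA turned from Fgfr1 to a mixture, and more slowly in K19R. Per kilobase of exon Fgfr1 held 88.9%, 78.8%, 50.7% and 27.2% of the summed receptor level in K19R at days 0, 2, 6 and 10, and 93.1%, 54.4%, 20.2% and 32.7% in FLAG-WT. Fgfr3 and Fgfr4 together were the larger part in FLAG-WT by day 6, with 34.4% and 40.6%, against 16.99% and 22.8% in K19R. By day 10 Fgfr4 led in both lines on this scale, with 45.1% ± 0.34 in K19R and 36.6% ± 1.9 in FLAG-WT (SD, n = 2). That order rests on the deposited exon lengths, 3542 bases for Fgfr4 and 9875 for Fgfr1. In CPM, with no division by length, Fgfr1 was above Fgfr4 at day 10. The means were 79.5 CPM for Fgfr1 and 47.3 CPM for Fgfr4 in K19R, and 104 and 41.8 CPM in FLAG-WT. The mean share of Fgfr2 was at most 12.1% ± 1.3 in K19R, at day 10, and 9.66% ± 1.2 in FLAG-WT, at day 2 (SD, n = 2). The sum itself was 24.3 ± 0.017, 11.9 ± 0.73, 27.2 ± 1.5 and 29.6 ± 0.78 CPM per kb in K19R, and 21.5 ± 0.86, 14.1 ± 0.35, 33.4 ± 0.43 and 32.2 ± 0.21 CPM per kb in FLAG-WT.

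**Figure D4:**
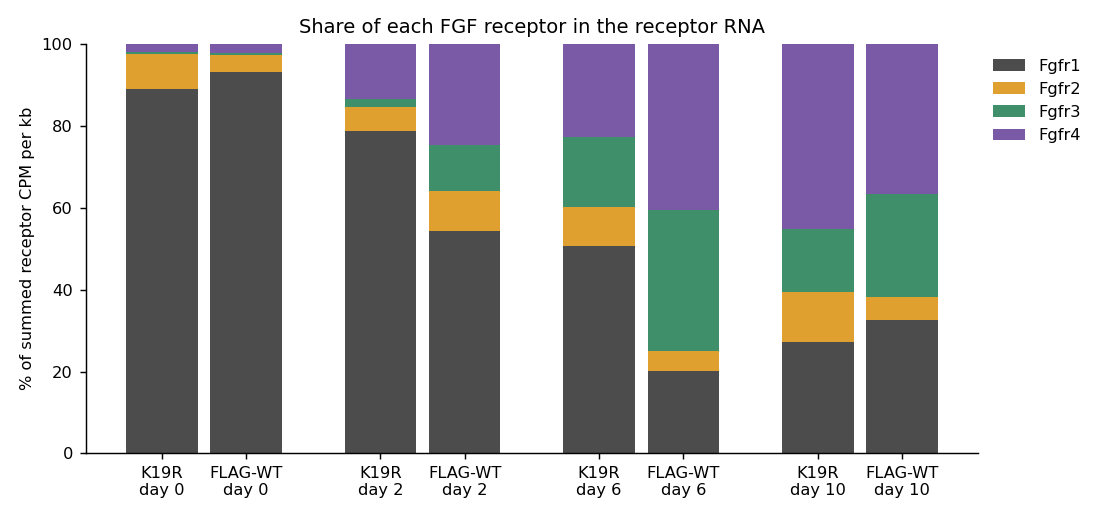
Share of Fgfr1, Fgfr2, Fgfr3 and Fgfr4 in the summed receptor level, in percent of CPM per kb of exon, for K19R (left bar of each pair) and FLAG-WT (right bar) at days 0, 2, 6 and 10. Each bar is the mean of 2 libraries and adds up to 100. Fgfr1 made up 50.7% in K19R and 20.2% in FLAG-WT at day 6. Fgfr4 was the largest share per kb in both lines at day 10, where Fgfr1 was the higher of these in CPM.

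Over all 8 FLAG-EED groups each gene had its own order. Fgf4 was highest in both day 0 groups and lowest in FLAG-WT at day 10, and its neighbours K19R day 6 and K19R day 10 overlapped. Fgf8 was highest in K19R at days 10 and 2, which overlapped, and Fgf15 in K19R and then FLAG-WT at day 2. Fgfr1 was highest in both day 0 groups and lowest in FLAG-WT at day 6, and the neighbours K19R day 10 and FLAG-WT day 2 overlapped. Fgfr2 was highest in K19R at day 10 and lowest in K19R at day 2, with no overlap between neighbours. Fgfr3 was highest in FLAG-WT at day 6 and Fgfr4 highest in FLAG-WT at day 6 and K19R at day 10, which overlapped.

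The genes most like each member were taken by Pearson r of log2 CPM over the 16 FLAG-EED libraries. Fgf4 was followed most closely by Ranbp17 (r = 0.996), Pcolce2 and Gdf3, and the level of Gdf3, a ligand of the TGF-beta family, was 10.8 CPM in K19R and 0.345 CPM in FLAG-WT at day 10. Fgf15 was followed by Fam169a (0.977), Axin2 (0.973), a feedback gene of WNT signalling, and Bnc2. Fgfr3 was followed by Stx7 (0.993), Amn, a partner of cubilin that stands in the endoderm list, and Fhl1, and Fgfr4 by Slc9a3r1 (0.998), Mtmr11 and Mettl7a1. Fgf8 was followed by AW822252 (0.952), Stard7 and Gtf2i, and Fgfr1 by Cd109 (0.966), Itgb5 and Nptx1. AW822252 was itself near the floor, with means from 0.026 CPM (FLAG-WT, day 10) to 0.676 CPM (K19R, day 2). Fgfr2 had the loosest company, with Dixdc1 at 0.878 and Afmid and Rgma below it.

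Wildtype mESCs grown without 2i differed from both knock-in lines in 6 or all 7 members. Fgf4 had 195 and 200 CPM in wildtype mESCs, against means of 481 ± 11 CPM in K19R and 453 ± 11 CPM in FLAG-WT mESCs at day 0 (SD, n = 2). Fgfr1 had 104 and 104 CPM in wildtype mESCs, against 216 ± 0.35 CPM in K19R and 199 ± 7.5 CPM in FLAG-WT. Both genes were thus lower in wildtype mESCs, by log2 -1.28 ± 0.10 (Fgf4) and -1.05 ± 0.07 (Fgfr1) against K19R and -1.20 ± 0.10 and -0.94 ± 0.07 against FLAG-WT (adjusted p of 6.63e-11 at most). Fgf15 went the other way, with 18.2 and 18.2 CPM in wildtype mESCs, 1.39 ± 0.037 CPM in K19R and 0.857 ± 0.032 CPM in FLAG-WT (log2 3.70 ± 0.16 and 4.40 ± 0.18, adjusted p = 4.18e-17 and 7.18e-18).

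Fgf8, Fgfr3 and Fgfr4 were also higher in wildtype mESCs than in either line. Fgfr4 had 4.09 and 4.16 CPM in wildtype mESCs, 1.76 ± 0.17 CPM in K19R and 1.75 ± 0.12 CPM in FLAG-WT (log2 1.24 ± 0.16 and 1.23 ± 0.16, adjusted p = 1.36e-07 and 1.35e-07). Fgfr2 had 19.6 and 22.2 CPM in wildtype mESCs, which overlapped the 21.3 to 22.1 CPM of K19R (log2 -0.04 ± 0.11, adjusted p = 0.76) and was 2.28-fold above the 8.97 to 9.47 CPM of FLAG-WT (adjusted p = 1.53e-09). The log2 difference from K19R spread between -0.15 and 0.03 over left-out libraries, and a p above the threshold does not show equal levels. In all, 4 members were higher and 2 lower than in K19R, and 5 higher and 2 lower than in FLAG-WT, where 65.2% of all genes were called against K19R (32.7% higher and 32.5% lower) and 64.9% against FLAG-WT (32.4% and 32.5%). The medium, the tag, the count table and the version of the counter changed together, so they cannot be told apart.

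Of 15 other FGF ligands 11 passed the filter. At day 2 they had 2 higher and 5 lower in K19R, then 5 and 2 on day 6, and 6 and 0 by day 10, with medians of log2 0.11, 0.61 and 1.30 over the tested genes beside 0, 0.02 and 0.13 over all genes. Over all genes tested 20% were higher and 21.8% lower at day 2, 28.4% and 30.1% on day 6, and 33.2% and 25.2% by day 10. Fgf10, a ligand of the FGFR2 isoform of epithelia, was lower in K19R at day 2 (2.90 ± 0.80 CPM in K19R, 29.8 ± 0.27 CPM in FLAG-WT, log2 -3.35 ± 0.16) and higher at day 10 (12.3 ± 1.0 CPM in K19R, 1.95 ± 0.79 CPM in FLAG-WT, 2.65 ± 0.20). Fgf5, a marker of the primed epiblast, had 111 ± 9.1 CPM in K19R and 67.6 ± 0.92 CPM in FLAG-WT at day 2 (SD, n = 2), and was higher in K19R at day 6 (1.89 ± 0.21) and day 10 (4.92 ± 0.31, from 319 counts against 8). At day 6 Fgf9 and Fgf23 had 19 and 8 counts in K19R and 0 in FLAG-WT.

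Of 10 cofactors and decoys in the table, 5 were higher and 3 lower in K19R at day 2, 3 and 4 on day 6, and 3 and 5 by day 10 (4 and 2, then 3 and 3, with scaling by library totals), with medians of log2 0.52, 0.04 and -0.62. The shares over all genes were 20% higher and 21.8% lower at day 2, 28.4% and 30.1% on day 6, and 33.2% and 25.2% by day 10. The split at day 6 and the number higher at day 10 were close to these shares. Klb, which encodes beta-klotho, the partner of FGFR4 for FGF15, was lower in K19R at day 2 (4.02 ± 1.2 CPM in K19R, 37.3 ± 2.4 CPM in FLAG-WT, log2 -3.20 ± 0.17) and day 6 (24.3 ± 1.2 CPM in K19R, 66.8 ± 4.7 CPM in FLAG-WT, -1.46 ± 0.13), and higher at day 10 (85.5 ± 4.5 CPM in K19R, 47.6 ± 0.089 CPM in FLAG-WT, 0.85 ± 0.13). Flrt3, a membrane protein that binds FGF receptors, was lower in K19R at day 2 (10.2 ± 0.84 CPM in K19R, 128 ± 3.9 CPM in FLAG-WT, -3.65 ± 0.10). Cdh2, the N-cadherin that interacts with FGFR1, was higher in K19R at day 6 (2.167 ± 0.22) and day 10 (5.87 ± 0.28, from 1146 counts against 15). Fgfbp1, a carrier of FGF ligands, was higher at day 6 (2.41 ± 0.21) and lower at day 10 (-0.87 ± 0.22).

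Of the 20 genes of heparan sulfate chains and their core proteins, 5 were higher and 10 lower in K19R at day 2, 7 and 7 on day 6, and 9 and 9 by day 10 (10 and 4, then 10 and 6, with scaling by library totals). The medians were -0.14, 0.03 and -0.06, and with library totals that at day 10 turned to 0.24. Over all genes 20% were higher and 21.8% lower at day 2, 28.4% and 30.1% on day 6, and 33.2% and 25.2% by day 10. The glypicans Gpc6 (-3.96 ± 0.34) and Gpc3 (-1.66 ± 0.11) were lower at day 2, Gpc1 was higher at day 6 (1.78 ± 0.12), and the syndecan Sdc1 was lower at day 10 (32.5 ± 1.5 CPM in K19R, 132 ± 17 CPM in FLAG-WT, -2.02 ± 0.09). Of 22 genes between receptor and ERK, 6 were higher and 5 lower at day 2, 1 and 15 on day 6, and 4 and 16 by day 10, but the last pair of splits became 9 and 6 and then 6 and 5 with scaling by library totals, which turned the median of the list at day 6 (-0.24) to 0.12 and that at day 10 (-0.28) to 0.03. Mapk3, which encodes ERK1, was lower in K19R at day 6 (153 ± 5.4 CPM in K19R, 336 ± 5.6 CPM in FLAG-WT, -1.13 ± 0.07), likewise the adaptor Frs2 (-0.68 ± 0.08). Of 4 intracellular FGF homologous factors, which are not secreted, 2 were higher and 1 lower in K19R at day 2, 1 and 1 on day 6, and 2 and 1 by day 10. Fgf13 was higher and Fgf11 lower on each of these days.

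Target and feedback genes of FGF and ERK rose in both lines from the 2i medium of day 0 to the embryoid bodies of day 2. In that step 16 of 18 rose in K19R and 15 of 18 in FLAG-WT, among them Etv4 and Egr1 in K19R (log2 7.53 ± 0.17 and 7.71 ± 0.25) and Dusp4 and Spry4 in FLAG-WT (7.68 ± 0.12 and 7.30 ± 0.12). Of all genes tested 28.5% rose in K19R and 28.5% in FLAG-WT. In wildtype mESCs without 2i, 15 of 18 were higher than in K19R and 15 of 18 higher than in FLAG-WT. The shares higher over all genes were 32.7% and 32.4%. Between the lines 7 were higher and 6 lower in K19R at day 2, 4 and 11 on day 6, and 8 and 10 by day 10, with medians of 0.04, -0.49 and -0.52 (6 and 9, then 8 and 9, with scaling by library totals). Over all genes 20% were higher and 21.8% lower at day 2, 28.4% and 30.1% on day 6, and 33.2% and 25.2% by day 10. The feedback inhibitor Spry4 was lower in K19R at day 2 (86.9 ± 1.2 CPM in K19R, 166 ± 8.0 CPM in FLAG-WT, -0.93 ± 0.07). The immediate early gene Fos and the ERK phosphatase Dusp5 were lower at day 6 (-1.54 ± 0.09 and -1.42 ± 0.10) and day 10 (-3.28 ± 0.10 and -2.99 ± 0.10), and Etv1, an ETS factor, was higher at day 10 from 173 counts against 3. These lists were described by counts alone.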

How the data were processed

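Total RNA (RNeasy) was turned into libraries with a VAHTS kit, per the labels' protocols. The deposited values are unnormalized counts, 1 per read pair and summed by gene name, made by the authors with featureCounts 1.6.3 (16 FLAG-EED libraries) and 1.6.4 (wildtype mESCs) over GENCODE vM19 exons of GRCm38, with both ends mapped and no strand option, per the file headers. The deposited exon length per gene (in bases) gave levels per kb, with bases shared with other genes left in. Per the submitters' processing notes the tools upstream were STAR 2.7.0c, Trim Galore 0.6.0, FastQC 0.11.7 and bcl2fastq 2.17. The members and gene lists were chosen with earlier results of these data known.

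Genes were kept with filterByExpr (10 counts, 15 in total), which left 19092 of 54429 names in the fit of 16 libraries and 19296 of 54352 shared names in the fit of all 18. Counts were scaled by TMM and tested with edgeR 4.0.16 (glmQLFit and glmQLFTest, 1 coefficient per group, 8 and 9 residual degrees of freedom) in R 4.3.3. The tests were two-sided, with p adjusted over all genes by Benjamini-Hochberg at 0.05 in each of 15 comparisons. CPM are counts relative to library size, with TMM factors. Errors are SD over 2 libraries or SE of the log2 change. The edgeR code was tested on simulated data. Scaled ratios to 1 or 2 counts, and the ratio of 1 count to 9, have exact 95% binomial intervals; intervals cover counting error only.

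All members were named in each comparison, and from each pathway list up to 4 called genes with the largest change per line comparison and up to 2 in the others. The text names part of the genes so chosen, picked with their values known, and another is not reported here. Alternatives were other scalings (RLE, totals), no filter, DESeq2 1.42.0, a replicate block, a fit of each day alone and leaving out each library. Replicates differed by more than sampling noise (chi-square over its degrees of freedom between 2.28 and 11.2), so none was taken as a repeat. Labels do not say whether replicates were separate cultures. The p-values therefore reflect the spread of the deposited samples alone, and that spread may be technical. Promoter windows are RefSeq's on GRCm38.p6.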

Additional observations from a re-analysis of the deposited data

Results flagged for a closer look

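The step between 2 sampling days differed between the lines, by the test of that difference itself, for 4 members from day 0 to day 2, 5 from day 2 to day 6 and 6 from day 6 to day 10. Of all 19092 genes tested, 27.1%, 44.5% and 39% differed over these steps. Values are the log2 change over the step in K19R minus that in FLAG-WT.

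From day 0 to day 2 the difference was 0.44 for Fgf4, which fell less in K19R, and -2.24, -2.92 and -1.11 for Fgfr2, Fgfr3 and Fgfr4. The value of Fgf4 (adjusted p = 0.029) was lost in 7 of 13 alternatives, with DESeq2 and without 6 of the 8 libraries in turn, at adjusted p up to 0.20.

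From day 2 to day 6 it was 1.49 for Fgf4, 1.18 for Fgf15, 0.74 for Fgfr1, 1.68 for Fgfr2 and 1.37 for Fgfr3. That of Fgf15 was lost without FLAG-WT day 6 replicate 2 (0.59, adjusted p = 0.25) and was 2.80 without FLAG-WT day 6 replicate 1.

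From day 6 to day 10 it was 2.05 for Fgf4, 5.92 for Fgf8, 3.27 for Fgf15, -1.42 for Fgfr1, 0.49 for Fgfr3 and 1.31 for Fgfr4. Those of Fgf8 and Fgf15 rest on 1 and 2 counts in FLAG-WT at day 10. That of Fgf8 was 8.57 without FLAG-WT day 10 replicate 2 and 5.02 without FLAG-WT day 10 replicate 1, and that of Fgf15 was lost without FLAG-WT day 6 replicate 1 (1.65, adjusted p = 0.40).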

How the results depend on the processing

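Of 1064 recomputed values for members, 1005 kept direction and side of the threshold, 32 lost the call, 4 gained it and 23 changed sign. The count of genes called at day 0 was 2003, against 3974 with a fit of that day alone and 844 to 957 without any 1 of the 4 day 0 libraries; the cause was not tested. The replicate block gave 1921, 7868, 11092 and 11041 genes at days 0, 2, 6 and 10, and crossing the K19R numbers at day 10 (an alternative chosen after seeing the data) gave 11109. Differences between replicates 1 and 2 were little correlated between groups (28 pairs of groups, r from -0.10 to 0.12). A weak correlation cannot show whether same-numbered samples were handled together. With the block the small change of Fgfr1 in FLAG-WT from day 2 to day 6 (-0.18, adjusted p = 0.045) was lost at adjusted p = 0.051, and no other member's call changed. It was also lost without FLAG-WT day 2 replicate 1, day 6 replicate 1 or day 6 replicate 2. The sign changes were all of values that had not passed in the main fit. Fgfr4 at day 0 (-0.00) was 0.0158 with RLE, 0.0052 without the filter, 0.0157 with DESeq2 and 0.0026 in that day's own fit, and spread from -0.0914 to 0.10 over left-out libraries; Fgfr3 at day 0 spread from -0.27 to 0.67. Fgfr3 in K19R from day 6 to day 10 was 0.0141 without the filter and -0.0608 to 0.039 over left-out libraries. With scaling by library totals Fgfr2 in FLAG-WT from day 2 to day 6 (0.25, adjusted p = 0.069) was -0.15, the line difference of Fgfr4 from day 2 to day 6 was 0.37 and passed (adjusted p = 0.037) beside a median of 0.45 over all genes, and Fgfr2 in wildtype mESCs against K19R was 0.0057. Over left-out libraries that Fgfr4 difference spread from -0.0443 to 0.0185, that of Fgf8 in the same step (0.59) from -0.043 to 1.37, that of Fgf15 from day 0 to day 2 from -0.0202 to 0.0603, and Fgfr2 in wildtype mESCs against K19R from -0.15 to 0.032. The fall of Fgf15 in FLAG-WT from day 6 to day 10 was lost without FLAG-WT day 6 replicate 1 (-1.07, adjusted p = 0.58). With totals 34.6% of the calls in FLAG-WT from day 2 to day 6 were higher (49.1% with TMM), and 80.8% of those in the line difference of that step (52.1%). Depth limits Fgf8 and Fgf15 in FLAG-WT at days 6 and 10, where libraries held 0 to 13 counts.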
